A study of Mus musculus with 30 samples.

Results

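Gm12248, Akr1c14, Slc6a2, Ly6d and Dpt had the largest rises when C2C12 myotubes were deprived of serum, among genes above a limit on the mean level over all libraries. They are described here in every culture condition of the study. They are 5 of 55487 genes in the count table and 5 of 15907 genes with enough counts to be tested. Their mean levels in serum deprivation with nothing added were 8.34 to 11.4 times those with serum. Gm12248 and Ly6d held only 5 to 18 counts per library with serum, which limits the precision of their values. In each of the 5 genes all 24 serum-free libraries were above all 6 libraries with serum. The choice had fixed this for the 6 libraries of serum deprivation alone. Of 981 tested genes with those 6 above all libraries with serum, 529 had all 24 above, which is 3.33% of the genes tested. No member fell past the threshold when metformin, leucine or both were added to serum-free medium. Differences among the serum-free groups were small beside this step. The largest was in Ly6d, whose mean with leucine was 141% of its mean in serum deprivation alone, and it did not pass in the main test. Against serum deprivation alone only Akr1c14 passed there, with metformin and leucine together, at 124% of its mean in serum deprivation alone. The combination was called in 18.4% of all genes tested.

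C2C12 is a mouse myoblast line whose cells fuse into contractile myotubes when serum is lowered. The cells were grown in high glucose medium with fetal bovine serum and then differentiated for 4 days in low glucose medium with 2% horse serum (HS). For 4 further days, 8 days in total, they were kept in 2% HS or deprived of serum (SD) with nothing added, with 100 nM metformin (MET), with 500 nM leucine (LEU) or with both (MET+LEU). Each of the 5 groups held 6 libraries of ribosomal RNA-depleted total RNA. All came from 1 cell line, and the labels do not say that replicates were separate cultures, so a p-value here measures the spread between these libraries, which may be technical. Values after ± are standard deviations, marked (SD, n = 6), and SD elsewhere is the serum-deprived group.

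The members were chosen for their rise in SD vs. 2% HS: of 923 genes that passed the threshold upwards, had a mean log2 CPM (read counts scaled to a common library size) of at least 1 and did not overlap between the groups, they had the highest fold changes. They were thus selected on the counts of the 2% HS and SD libraries. Values of that contrast are therefore given as a description, without a test, and so are all other values set against the same 2% HS libraries. The rule was met by 5.8% of the genes tested. The last member, Dpt, had a log2 fold change of 3.05, and the next gene that met the rule, Ptpn5, a neuronal tyrosine phosphatase, had 2.89. After it came Dkk2, a secreted modulator of Wnt signalling, with 2.87 and Aplnr, the apelin receptor, with 2.76. Only Ccn3, a secreted matricellular protein that was named after its values were seen, had a larger log2 fold change than a member without being chosen. Its log2 fold change was 4.19 (SE 0.45), with a mean of 0.0895 ± 0.0700 CPM in 2% HS and 1.75 ± 0.315 CPM in SD (SD, n = 6), and its mean log2 CPM of 0.23 was under the limit.

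Serum supplies cells with growth factors, hormones and lipids, and its removal lowers growth signalling and shrinks myotubes. Metformin slows mitochondrial respiration and activates the energy sensor AMPK, and leucine signals amino acid supply to the kinase mTORC1. The members have unrelated known roles. Akr1c14 encodes a 3-alpha-hydroxysteroid dehydrogenase of the aldo-keto reductases, which inactivates dihydrotestosterone. Slc6a2 encodes the noradrenaline transporter, which takes the transmitter back up into sympathetic nerve endings. Ly6d encodes a small surface protein with a lipid anchor, best known from keratinocytes and early B lymphocytes, and Dpt encodes dermatopontin, a matrix protein that binds decorin and fibronectin and promotes the assembly of collagen fibrils. Gm12248 carries only a provisional name.

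The genes lie on different chromosomes, and all are annotated as protein coding in GENCODE M21 on GRCm38, the build that the submitters' processing notes name. Gm12248 (ENSMUSG00000086962) spans chr11:58063552-58093134 on the minus strand, with 1462 exonic bases in 9 blocks. Akr1c14 (ENSMUSG00000033715) spans chr13:4049011-4090688 on the plus strand, with 3239 exonic bases in 13 blocks. Slc6a2 (ENSMUSG00000055368) spans chr8:92960079-93001667 on the plus strand, with 6290 exonic bases in 15 blocks. Ly6d (ENSMUSG00000034634) is the most compact, spanning chr15:74762056-74763620 on the minus strand with 744 exonic bases in 3 blocks. Dpt (ENSMUSG00000026574) spans chr1:164796644-164824266 on the plus strand, with 1724 exonic bases in 4 blocks.

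For the 3 of 5 members that have a promoter entry in RefSeq (GRCm38.p6), the sequence before the start is shown. The 250 bases before each RefSeq start are written 5′ to 3′ on the strand of the gene, and capitals mark matches to any of 5 motifs searched on both strands. These were the forkhead motif GTAAACA, the antioxidant response core TGACNNNGC, the muscle E-box CAGCTG, the TATA box TATAAA and the STAT motif TTCNNNGAA. The windows are chr1:164796413-164796662 for Dpt, chr11:58093130-58093379 for Gm12248 and chr13:4059341-4059590 for Akr1c14, the last of which lies inside the GENCODE span of its gene.
Dpt: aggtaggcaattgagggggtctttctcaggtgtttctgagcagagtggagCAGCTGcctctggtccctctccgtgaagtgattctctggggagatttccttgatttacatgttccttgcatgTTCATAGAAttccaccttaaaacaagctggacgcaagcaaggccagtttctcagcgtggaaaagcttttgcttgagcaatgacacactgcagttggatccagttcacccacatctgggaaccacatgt
Gm12248: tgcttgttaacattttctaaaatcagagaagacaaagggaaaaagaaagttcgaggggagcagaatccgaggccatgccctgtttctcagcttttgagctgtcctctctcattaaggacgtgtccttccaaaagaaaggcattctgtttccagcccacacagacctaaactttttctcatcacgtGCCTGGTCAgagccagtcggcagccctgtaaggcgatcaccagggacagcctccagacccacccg
Akr1c14: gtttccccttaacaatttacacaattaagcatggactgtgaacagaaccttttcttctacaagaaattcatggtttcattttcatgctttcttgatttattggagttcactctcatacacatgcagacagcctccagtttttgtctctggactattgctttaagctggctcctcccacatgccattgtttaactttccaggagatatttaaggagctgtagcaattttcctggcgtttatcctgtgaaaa

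The capitals before Dpt are an E-box whose first base lies at position -200 from the start and a STAT motif at position -128. In the 50 bases after its start, which were also searched, a second E-box began at base 7 and a TATA box at base 13. The capitals before Gm12248 are the antioxidant response core read on the opposite strand, at position -65. The Akr1c14 window held none of the 5. No motif was found in more than 1 of the 3 windows. Among 32851 windows of 300 bases, 16.3% held the E-box, 13.6% the TATA box, 12.4% the antioxidant response core, 8.3% the STAT motif and 3.65% the forkhead motif, so single matches are common. A match is a description of letters in a window and not evidence of a bound site.

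Libraries held between 12784960 and 19604103 counts on genes. The cultures carried the myotube programme in every group: all 12 myotube markers, among them myosin heavy chains, Ckm and Myog, passed the filter, and their summed level was 11655 to 12412 CPM in 2% HS and 10550 to 12239 CPM in SD. In SD vs. 2% HS, 1 of them rose and 4 fell. MET+LEU replicate 6 stood apart in mitochondrial ribosomal RNA, which took 7.64% of its counts and at most 0.760% in any other library, and in annotated ribosomal RNA genes, with 5.85% against at most 1.96%. Results that rest on it are given with and without it. Sequence identical to another gene was a small share of each member, in a count that passes over relatives with scattered mismatches. Of the 50-base stretches of their transcripts, 0 in Ly6d and Dpt also occurred in a transcript of another annotated gene. The share was 2.91% in Gm12248, 0.561% in Slc6a2 and 5.8% in Akr1c14. In Akr1c14 all of these shared stretches lay in the overlapping pseudogene Gm18857, which held 3 counts in all libraries together. The gene antisense to Dpt, Gm32569, held 47 counts in all against 18176 for Dpt.

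Dpt had the highest level per length of the members and the lowest fitted biological coefficient of variation, 0.0503. It measured 4.95 (lowest), 5.86 (median) and 6.32 (highest) CPM in the 6 libraries of 2% HS and 42.9, 48.1 and 51.5 CPM in those of SD. The lowest library without serum was therefore far above the highest with serum. Means were 5.73 ± 0.654 CPM in 2% HS and 47.8 ± 2.98 CPM in SD (SD, n = 6), a log2 fold change of 3.05 (SE 0.07). In MET the 6 libraries spanned 41.9 to 50.5 CPM with a median of 45.5, in LEU 43.9 to 49.2 with a median of 47.1 and in MET+LEU 45.3 to 52.2 with a median of 49.2. All 4 serum-free groups overlapped, and the highest of their means was 1.08 times the lowest. In order of the mean the groups ran 2% HS, MET, LEU, SD and MET+LEU, and neighbours among the last 4 lay within 1 standard deviation of each other.

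Akr1c14 was the one member in which a serum-free group with additions stood clear of SD. Its 6 libraries in 2% HS measured 2.63 (lowest), 3.10 (median) and 3.33 (highest) CPM and those of SD 22.6, 27.04 and 29.6 CPM. Again no library of one group reached the other. Means were 3.02 ± 0.279 and 26.5 ± 2.82 CPM (SD, n = 6), a log2 fold change of 3.13 (SE 0.09). With additions to serum-free medium the libraries stood at 27.5 to 31.8 CPM (median 29.1) in MET, 25.2 to 33.2 (median 28.9) in LEU and 31.2 to 35.2 (median 32.5) in MET+LEU. The lowest MET+LEU library was above the highest SD library, while MET and LEU overlapped SD and each other. The order of the means was 2% HS, SD, LEU, MET and MET+LEU, with SD, LEU and MET within 1 standard deviation of their neighbours.

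Slc6a2 had the lowest level per length of the members. It measured 0.823 (lowest), 1.68 (median) and 2.13 (highest) CPM in 2% HS and 12.2, 13 and 17.6 CPM in SD. The groups did not overlap, and the SD libraries were spread unevenly, with the median close to the lowest. Means were 1.599 ± 0.444 and 14.04 ± 2.23 CPM (SD, n = 6), a log2 fold change of 3.12 (SE 0.14). The other serum-free libraries ranged from 13.9 to 17.2 CPM in MET (median 15.2), from 13.02 to 17.4 in LEU (median 14.5) and from 11.6 to 15.7 in MET+LEU (median 13.7). All 4 serum-free groups overlapped, in the order MET+LEU, SD, LEU and MET, and neighbours differed by less than 1 standard deviation.

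Ly6d had few counts with serum. Its libraries in 2% HS held only 5 to 18 counts, which is 0.387 (lowest), 0.814 (median) and 1.14 (highest) CPM, and those in SD measured 5.14, 6.54 and 7.64 CPM. The groups were separate. Means were 0.758 ± 0.279 and 6.48 ± 1.09 CPM (SD, n = 6), a log2 fold change of 3.06 (SE 0.18). Serum-free libraries with additions measured 6.30 to 8.20 CPM in MET (median 7.59), 7.38 to 11.2 in LEU (median 9.19) and 5.75 to 10.0 in MET+LEU (median 7.04). LEU had the highest median, although its lowest library lay under the highest of SD. In order, the groups ran 2% HS, SD, MET+LEU, MET and LEU, with means of 7.33 ± 1.46 CPM in MET+LEU, 7.51 ± 0.732 in MET and 9.13 ± 1.41 in LEU (SD, n = 6). SD, MET+LEU and MET lay within 1 standard deviation of their neighbours, and LEU lay further from MET than that.

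Gm12248 had the largest fold change of the members in SD vs. 2% HS and the highest fitted biological coefficient of variation, 0.138. In 2% HS its 6 libraries held 5 to 17 counts, or 0.387 (lowest), 0.481 (median) and 1.08 (highest) CPM, and in SD they measured 5.35, 6.66 and 8.47 CPM. Again the groups did not overlap. The means were 0.589 ± 0.262 and 6.71 ± 1.23 CPM (SD, n = 6), a log2 fold change of 3.496 (SE 0.20). Serum-free libraries with additions ranged over 4.55 to 7.55 CPM in MET (median 5.73), 4.61 to 8.43 in LEU (median 6.82) and 5.02 to 7.84 in MET+LEU (median 6.57). These groups lay over each other and over SD, and their means followed the order MET, MET+LEU, SD and LEU with all neighbours within 1 standard deviation. The coefficient of variation between replicates was 44.5% in 2% HS, where counting error alone gives 33.3%, and 18.3% in SD, where it gives 9.77%.

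**Figure D1:**
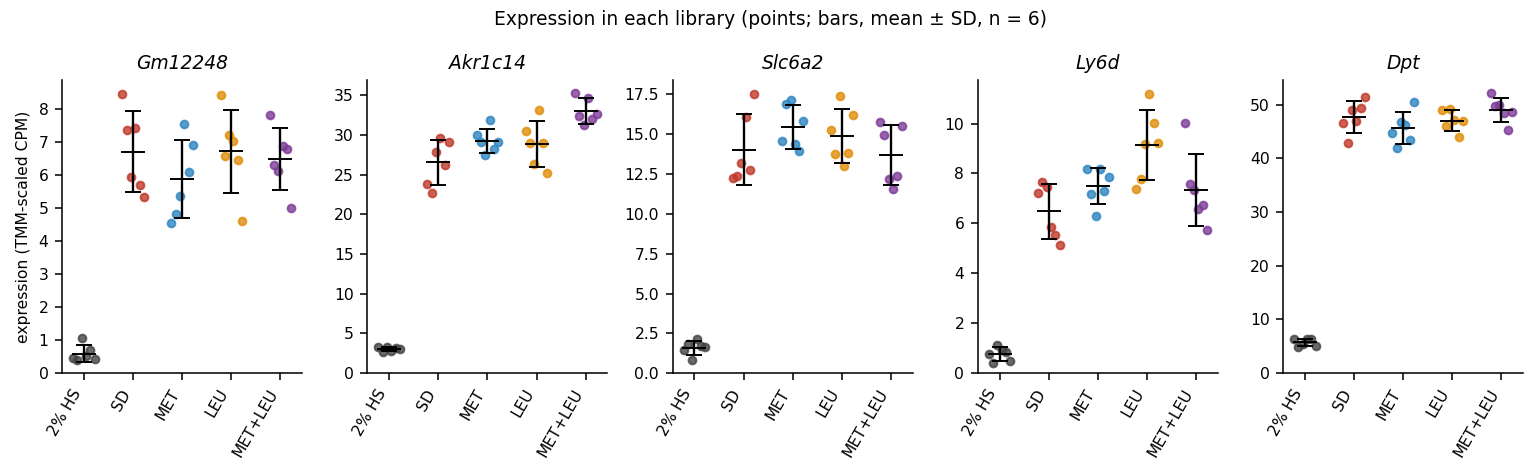
Expression of the 5 genes in each of 30 libraries, as CPM after TMM scaling, on a linear axis from 0 for each gene. Points are libraries, and bars are the mean ± SD of 6 libraries; in every panel the libraries of 2% HS lie together near the bottom and the serum-free libraries overlap well above them, apart from Akr1c14 in MET+LEU, where the lowest library (31.2 CPM) is above the highest of SD (29.6 CPM).

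Per kilobase of exon, Dpt had the highest level in SD at 27.7 ± 1.73 CPM per kb. Ly6d at 8.71 ± 1.46 and Akr1c14 at 8.19 ± 0.872 CPM per kb did not differ beyond their spread, and Gm12248 at 4.59 ± 0.839 and Slc6a2 at 2.23 ± 0.355 CPM per kb followed (SD, n = 6). With serum the levels were 3.32 ± 0.379 CPM per kb for Dpt, 1.02 ± 0.375 for Ly6d, 0.932 ± 0.0861 for Akr1c14, 0.403 ± 0.179 for Gm12248 and 0.254 ± 0.0706 for Slc6a2. By their means the genes ran in the same order in both media. With serum, Ly6d and Akr1c14 differed by less than the larger of their standard deviations, and so did Gm12248 and Slc6a2. All had been chosen for a large rise between these media, which leaves the order little room to change. In bulk RNA, fewer cells that express a gene and less of its RNA per cell cannot be told apart, so these levels are averages over each culture.

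The same step was seen whatever was added to the serum-free medium. Log2 fold changes against 2% HS were between 2.98 (Dpt) and 3.30 (Gm12248) in MET, between 3.03 (Dpt) and 3.54 (Ly6d) in LEU and between 3.09 (Slc6a2 and Dpt) and 3.45 (Akr1c14 and Gm12248) in MET+LEU. These comparisons share the 2% HS libraries with the choice of the members and are not independent of it. In all 5 genes all 24 serum-free libraries were above all 6 libraries of 2% HS, as the choice had required of the 6 SD libraries. This held for 3.33% of the genes tested, and for 529 of the 981 with all 6 SD libraries above those of 2% HS. For single groups the share of tested genes with all 6 libraries above those of 2% HS was 11.5% for MET+LEU, 9.78% for MET, 9.11% for LEU and 6.17% for SD. The gap was wide: the lowest serum-free library stood at 6.81 times the highest 2% HS library in Akr1c14, 6.63 times in Dpt, 5.45 times in Slc6a2, 4.51 times in Ly6d and 4.23 times in Gm12248.

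Across the 5 group means, centred per gene on the log2 CPM scale, the 3 nearest of 12697 other genes to each member were other members. The closest pair was Gm12248 and Dpt, with a root-mean-square distance of 0.10 log2 units over the 5 groups, and the widest was Ly6d and Dpt with 0.18. The profiles share the step between 2% HS and the other groups, by which the genes were chosen.

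The first test of contrasts other than that of the choice asked whether metformin or leucine changed the members within serum-free medium. It was made in 6 comparisons between serum-free groups and in the interaction of MET and LEU, with edgeR's quasi-likelihood test and Benjamini-Hochberg adjustment over all 15907 genes. The SD libraries had also served to choose the members. The 3 comparisons with SD and the interaction therefore share them with the choice and are not independent of it.

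Metformin alone changed no member past the threshold in MET vs. SD, where 0.157% of the genes tested were called. At an unadjusted p under 0.05, which 10% of the genes tested met, the count was 1, Akr1c14, and with adjustment it was 0 by limma-voom and by DESeq2, which gave an adjusted p only for Akr1c14 and Dpt. The log2 fold change of Akr1c14 was 0.14 (95% interval 0.02 to 0.27, adjusted p = 0.422). Ly6d differed by 0.21 (-0.05 to 0.46), Slc6a2 by 0.14 (-0.06 to 0.34), Dpt by -0.07 (-0.17 to 0.03) and Gm12248 by -0.20 (-0.48 to 0.08), with adjusted p between 0.609 and 0.711.

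Leucine alone gave Ly6d the largest difference between any serum-free groups. In LEU vs. SD its log2 fold change was 0.49 (SE 0.12, 95% interval 0.24 to 0.73), and 5 of 6 LEU libraries were above all SD libraries. The adjusted p of 0.0521 did not pass, so 0 members were called, beside 0.553% of all genes tested. At an unadjusted p under 0.05, met by 9.98% of the genes tested, the count was 1, Ly6d, and DESeq2 (adjusted p = 0.0136) and limma-voom (adjusted p = 0.0219) each called it. It also passed without 2% HS replicate 2 or 3, SD replicate 1, 2 or 3, LEU replicate 1 or MET+LEU replicate 1, 2 or 6, which is 9 of 30 fits that left out 1 library. The other members stayed within 0.12 log2 units of SD: Akr1c14 differed by 0.12 (-0.01 to 0.25), Slc6a2 by 0.09 (-0.11 to 0.29), Gm12248 by -0.01 (-0.29 to 0.27) and Dpt by -0.02 (-0.12 to 0.08). In LEU vs. MET Ly6d differed by 0.28 (95% interval 0.03 to 0.52, adjusted p = 0.510). That comparison called 0 members and 0.0754% of the genes tested, with 1 member (Ly6d) at an unadjusted p under 0.05 (8.68% of the genes tested) and 0 by DESeq2 and limma-voom.

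Akr1c14, the steroid-inactivating reductase, rose in the combination above its already high level in SD. In MET+LEU vs. SD its log2 fold change was 0.32 (SE 0.06, 95% interval 0.19 to 0.44, adjusted p = 2.9e-04 by edgeR's quasi-likelihood test), from 26.5 ± 2.82 to 33.0 ± 1.58 CPM (SD, n = 6), and all 6 libraries were above all 6 of SD. Without MET+LEU replicate 6 the log2 fold change was 0.32 (SE 0.07, adjusted p = 3.9e-04). The combination changed many genes, and 18.4% of those tested were called, 10.6% upwards. Complete separation upwards was seen in 3.41%. A single call among 5 members is close to that background. Ly6d differed by 0.18 (-0.08 to 0.43), Dpt by 0.04 (-0.06 to 0.14), Slc6a2 by -0.03 (-0.23 to 0.17) and Gm12248 by -0.05 (-0.33 to 0.23), with adjusted p between 0.362 and 0.868. Without MET+LEU replicate 6 these differences were 0.23, 0.04, -0.07 and 0.0041, and none passed.

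Against leucine alone, Akr1c14 was again higher in the combination. In MET+LEU vs. LEU its log2 fold change was 0.20 (SE 0.06, 95% interval 0.07 to 0.32, adjusted p = 0.0453) and it was the only member called, beside 6.28% of the genes tested (4.61% upwards). Only 2 of 6 MET+LEU libraries were above all LEU libraries, and the call was lost in 26 of 30 fits that left out 1 library, MET+LEU replicate 6 among them (log2 fold change 0.19, adjusted p = 0.0872), remaining without 2% HS replicate 5, MET replicate 4, LEU replicate 4 or MET+LEU replicate 3. No member was called in MET+LEU vs. MET, beside 8.69% of the genes tested. At an unadjusted p under 0.05, met by 22.6% of the genes tested, there were 2, Akr1c14 with 0.17 (0.05 to 0.30, adjusted p = 0.0725) and Dpt with 0.11 (0.01 to 0.21, adjusted p = 0.189), and DESeq2 and limma-voom called 0. Without MET+LEU replicate 6 the 2 were Akr1c14 (0.17, adjusted p = 0.125) and Slc6a2 (-0.22, adjusted p = 0.242), Dpt being at 0.10 (adjusted p = 0.293), and 0 were called.

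For Ly6d the order was reversed, with a lower level in the combination than in leucine alone. In MET+LEU vs. LEU its log2 fold change was -0.31 (95% interval -0.55 to -0.06, adjusted p = 0.123), and 4 of 6 MET+LEU libraries were below all LEU libraries. Without MET+LEU replicate 1, the highest of its group, it was -0.43 and passed (adjusted p = 0.0329), and without MET+LEU replicate 6 it was -0.26 (adjusted p = 0.263). The interaction of MET and LEU, which asks whether the combination differs from the sum of the single log2 differences, was -0.52 in Ly6d (SE 0.18, 95% interval -0.87 to -0.16, adjusted p = 0.321). No member passed in the interaction, beside 0.0503% of the genes tested, with 1 (Ly6d) at an unadjusted p under 0.05 (8.73% of the genes tested) and 0 by limma-voom. DESeq2 gave no adjusted p for the members there. Without MET+LEU replicate 6 the interaction in Ly6d was -0.47 (adjusted p = 0.426), and 2 members, Ly6d and Slc6a2 (-0.31, adjusted p = 0.582), were at an unadjusted p under 0.05.

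**Figure D2:**
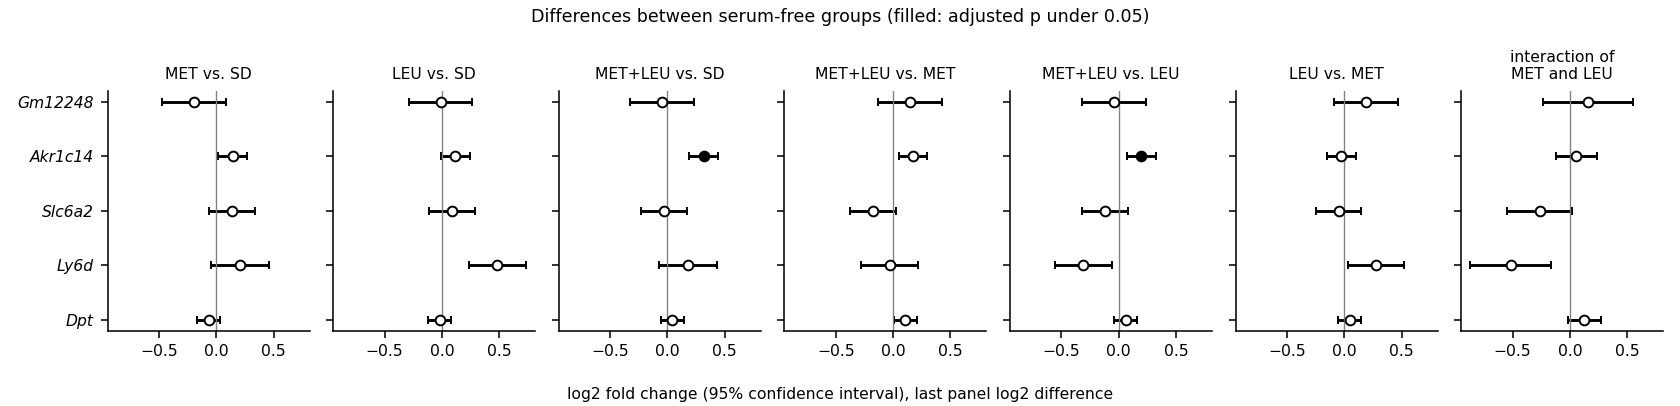
Log2 fold changes of the 5 genes between serum-free groups (x axis, with 95% confidence intervals from edgeR's quasi-likelihood fit) for 6 comparisons and the interaction of MET and LEU. Filled points passed an adjusted p of 0.05: only Akr1c14 in MET+LEU vs. SD (0.32) and MET+LEU vs. LEU (0.20) did, and among the comparisons of 2 groups the open point farthest from 0 is Ly6d in LEU vs. SD (0.49).

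The rest of each gene's family or pathway was then counted in SD vs. 2% HS, with each member itself left out. Over all genes tested, 13.9% were called up and 13.9% down, and the median log2 fold change was 0.003.

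Among aldo-keto reductases, Akr1c14 stood alone. Of 16 other family genes 9 were tested, 1 rose and 3 fell, with a median log2 fold change of -0.14. Akr1b3, the aldose reductase of the polyol pathway, fell from 186 ± 12.4 to 143 ± 14.9 CPM (log2 fold change -0.38, adjusted p = 3.0e-07), and Akr1b8 from 65.2 ± 2.46 to 50.6 ± 2.19 CPM (-0.37, adjusted p = 1.4e-09; SD, n = 6 for all). Akr1b7 was called down by -1.03 at under 1 CPM (adjusted p = 0.0450), a call lost without any 1 of 2% HS replicates 2 to 6 or of SD replicates 1 and 3 to 6, the smallest value being -0.80. It was also lost by DESeq2 (adjusted p = 0.0660), with no filter on low counts (0.0678) and with only SD and 2% HS in the model (0.0725). The gene that rose was Akr1a1, the aldehyde reductase, by 0.16, and without 2% HS replicate 2 or SD replicate 1 or 3 the count that rose was 0. The closest relatives on the same stretch of chromosome 13, Akr1c12 and Akr1c13, had log2 fold changes of -0.01 and -0.14 and did not pass, and Akr1c6, Akr1c18, Akr1c19, Akr1c20, Akr1c21 and Akr1d1 had 0 counts in every library. None of the family was called in MET, LEU or MET+LEU vs. SD, beside 0.157%, 0.553% and 18.4% of all genes tested. In MET+LEU vs. SD 1 was called down without SD replicate 5 and 1 up without MET+LEU replicate 3.

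In a list of steroid reductases, hydroxysteroid dehydrogenases and retinol dehydrogenases, the genes called all rose, with log2 fold changes from only 0.12 to 0.97. Of 22 genes 11 were tested, 6 rose and 0 fell, with a median log2 fold change of 0.20. Hsd11b1, which regenerates active glucocorticoid inside cells, rose from 17.9 ± 2.13 to 35.2 ± 2.52 CPM (log2 fold change 0.97, adjusted p = 7.4e-17; SD, n = 6). Hsd3b7, an enzyme of bile acid synthesis, rose by 0.86 (adjusted p = 3.0e-04), and Dhrs9, a retinol dehydrogenase, by 0.77 (adjusted p = 0.0257). The Dhrs9 call was lost without 2% HS replicate 4 or 5 or SD replicate 6, the lowest value being 0.54. Of the 11 tested genes 2 rose and 1 fell in MET+LEU vs. SD, where 18.4% of all genes tested were called. Hsd11b1 rose there by a further 0.32 (adjusted p = 1.2e-04) and Hsd3b7 fell by 0.53 (adjusted p = 0.0331). Without MET+LEU replicate 6 these were 0.33 (adjusted p = 6.3e-05) and -0.40 (adjusted p = 0.112). The count that rose there was 1 without MET+LEU replicate 6 or SD replicate 2 or 4, and the count that fell was 0 without MET+LEU replicate 2, 5 or 6 or SD replicate 1, 3 or 6.

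No other neurotransmitter or amino acid carrier of the SLC6 family was called up. Of 19 other genes 6 were tested, 0 rose and 2 fell, with a median log2 fold change of -0.18. Slc6a9, a glycine transporter, fell from 40.0 ± 1.78 to 27.9 ± 2.66 CPM (log2 fold change -0.52, adjusted p = 2.8e-09), and the taurine transporter Slc6a6, the most abundant of them, from 1638 ± 51.6 to 1448 ± 70.8 CPM (-0.18, adjusted p = 2.9e-05; SD, n = 6). The nearest relatives of Slc6a2, the dopamine transporter Slc6a3 and the serotonin transporter Slc6a4, had 0 counts and 1 count in all libraries together. In MET+LEU vs. SD 3 of the 6 tested genes fell and 0 rose, with and without MET+LEU replicate 6. Of all genes tested, 18.4% were called there.

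Genes that make, store, break down or sense noradrenaline were called in both directions. Of 22 genes 9 were tested, 2 rose and 1 fell, with a median log2 fold change of 0.12. The receptor gene Adra1b rose from 0.699 ± 0.331 to 1.38 ± 0.241 CPM (log2 fold change 0.97, adjusted p = 0.0215), a call lost without 2% HS replicate 2 or 4 or SD replicate 6 (lowest value 0.87). Maoa, which degrades the transmitter, rose by 0.31 (adjusted p = 5.3e-08), and Ddc, an enzyme of its synthesis, fell by 0.47 (adjusted p = 0.00779). Th, the first enzyme of the synthesis, had 2 counts in all libraries together. Of the 9 tested genes 1 rose and 0 fell in MET+LEU vs. SD, with and without MET+LEU replicate 6, where 18.4% of all genes tested were called. The count that rose there was 0 with only SD and MET+LEU in the model. The count that fell was 1 without MET+LEU replicate 1 or 2 or SD replicate 3. The sympathetic neuron markers summed to 3.10 to 4.29 CPM in 2% HS and 2.75 to 4.21 CPM in SD, nearly all of it Dbh at 3.51 and 3.52 CPM, and Chga was at 0 in every library.

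In the Ly6/uPAR family, the genes that rose included surface markers of stromal and blood cells. Of 34 genes 8 were tested, 4 rose and 2 fell, with a median log2 fold change of 0.21. Ly6a, the antigen Sca-1, rose from 2.65 ± 0.423 to 4.89 ± 0.928 CPM (log2 fold change 0.88, adjusted p = 1.6e-05), Ly6c2 by 0.71 (adjusted p = 1.7e-04) and Ly6c1 by 0.49 (adjusted p = 0.00862). Ly6c1 lost its call without SD replicate 4 (0.37). In MET+LEU vs. SD, where 18.4% of all genes tested were called, Ly6a was the only family gene called. It fell by 0.45 (adjusted p = 0.0315), and without MET+LEU replicate 6 it did not pass (-0.42, adjusted p = 0.0645). The count that fell there was also 0 by limma-voom, with only SD and MET+LEU in the model and without MET+LEU replicate 1 or 5 or SD replicate 2 or 3, and 1 gene was called up without MET+LEU replicate 1, 2 or 3 or SD replicate 2. In SD vs. 2% HS the count that fell was 1 without 2% HS replicate 6 or SD replicate 3. No marker of the cell types best known for Ly6d was called. Of 6 keratinocyte markers 3 were tested and 0 called, the summed level being 41.5 to 52.5 CPM in 2% HS and 42.3 to 48.7 CPM in SD, nearly all of it Trp63 at 44.7 and 44.2 CPM, with Krt5 at 2 counts and Krt15 at 1 count in all libraries together. Of 6 B lymphocyte markers 0 reached the filter, at a sum of 0.207 to 0.774 CPM in 2% HS and 0.0633 to 0.714 CPM in SD, and Ms4a1 was at 0.

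Of the 7 lists, matrix genes that act with dermatopontin had the largest share that rose. Of 30 partners and fibril regulators 26 were tested, 21 rose and 1 fell, with a median log2 fold change of 0.46. Lum, which encodes the fibril-regulating proteoglycan lumican, rose from 0.473 ± 0.318 to 2.04 ± 0.257 CPM (log2 fold change 2.10, adjusted p = 8.1e-09), and Col12a1, a fibril-associated collagen, from 1283 ± 30.4 to 2929 ± 127 CPM (1.19, adjusted p = 3.3e-29). The one that fell was another fibril-associated collagen, Col14a1, from 8.71 ± 1.09 to 2.98 ± 0.327 CPM (-1.55, adjusted p = 5.2e-13; SD, n = 6 for all). Decorin (Dcn) and fibronectin (Fn1), which dermatopontin binds and which were named after their values were seen, rose as well. Their log2 fold changes were 0.65 (adjusted p = 2.2e-05) and 0.67 (adjusted p = 9.8e-21). In the same list Tgfb1 did not pass (0.03, adjusted p = 0.759), and Vtn, with 7 counts in all libraries together, was not tested. In MET+LEU vs. SD, where Dpt differed by 0.04 and 18.4% of all genes tested were called, 8 genes of the list rose and 5 fell. Dcn was among those that rose (0.48, adjusted p = 0.00111, and 0.46 without MET+LEU replicate 6, adjusted p = 0.00516). None of the list was called in MET vs. SD and 2 fell in LEU vs. SD, beside 0.157% and 0.553% of all genes tested that were called.

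Fibroblast markers moved with Dpt and with this matrix group. Of 8 markers 5 were tested and all 5 rose in SD vs. 2% HS, 2 of them, Ly6a and Lum, being also in the lists above. Their summed level was 14.1 to 16.4 CPM in 2% HS and 27.6 to 35.1 CPM in SD, and with additions it was 27.9 to 33.0 CPM in MET+LEU, 30.6 to 32.8 in MET and 26.6 to 31.9 in LEU. Pdgfra, the most abundant, rose by 0.79 (adjusted p = 5.2e-12), while Tcf21 was at 0 counts and Thy1 and Dpp4 at 21 and 8 counts in all libraries together. Markers of unfused myoblasts and reserve cells summed to 1835 to 2066 CPM in 2% HS and 1495 to 1790 CPM in SD, with 1 of 9 tested markers called up and 5 called down. The part of either in the rise of the members was not tested.

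Among 8 growth arrest-specific genes, first known from fibroblasts starved of serum, all were tested, 5 rose and 0 fell, with a median log2 fold change of 0.21. Gas1, a membrane protein that blocks entry into S phase, rose from 148 ± 5.14 to 217 ± 6.79 CPM (log2 fold change 0.55, adjusted p = 1.2e-12; SD, n = 6), Gas7 by 0.49 (adjusted p = 1.2e-04) and the growth factor gene Gas6 by 0.27 (adjusted p = 5.8e-05). All lay under the smallest log2 fold change of a member, 3.05, which follows from choosing the members for the largest rises. Of the 8 genes, 1 fell in LEU vs. SD and 1 in MET+LEU vs. SD, and 0 rose in either. Over all genes tested, 0.553% and 18.4% were called there. Without MET+LEU replicate 6 or SD replicate 1, 1 gene rose in MET+LEU vs. SD.

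**Figure D3:**
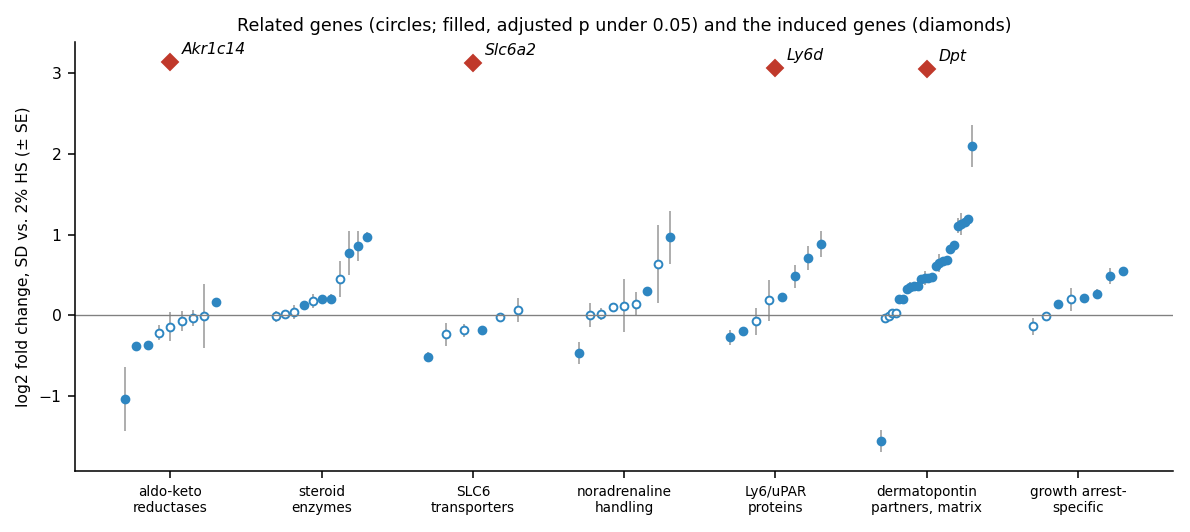
Log2 fold change in SD vs. 2% HS (y axis, bars ± SE) of the tested genes of 7 lists, with the member of the family as a red diamond where there is one. Filled circles passed an adjusted p of 0.05. The highest circle of any list is Lum (2.10), and most matrix genes lie above 0. The diamonds stand highest because the members were chosen for the largest rises.

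On the chromosome, the tested genes next to each member had log2 fold changes of at most 1.00, with 1 exception. The nearest tested genes to Gm12248 were Larp1, a regulator of translation, 1.52 kb away at 0.03 (adjusted p = 0.536), and Cnot8, a deadenylase subunit, 11.02 kb away at 0.16 (adjusted p = 0.00990). Beside Dpt, the sodium pump subunit Atp1b1 was at 0.02 and the transcript Gm20743 at -0.38 (adjusted p = 0.515). Beside Slc6a2, Lpcat2, an enzyme of phospholipid synthesis, was at 0.18 (adjusted p = 0.425), and the G protein subunit Gnao1, 808 kb away, at 0.38 (adjusted p = 3.9e-13). Ly6d lay between Lynx1, a relative that fell by 0.19 (adjusted p = 0.00133), and Cyp11b1, a steroid hydroxylase 70.5 kb away, which rose from 3.15 to 6.29 CPM (log2 fold change 1.00, adjusted p = 2.0e-08).

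The exception was beside Akr1c14. The long non-coding RNA Gm47904 begins 0.598 kb past its end on the same strand and had a log2 fold change of 2.14 (SE 0.72, adjusted p = 0.0207), from 0.0660 to 0.332 CPM. That is a level of a few counts per library, and the call was lost without 2% HS replicate 4 (1.83), SD replicate 4 (1.96) or SD replicate 5 (1.90). On the other side, Net1, a guanine nucleotide exchange factor, was 130.8 kb away at 0.07 (adjusted p = 0.199). Over all genes tested, 13.9% were called up and 13.9% down in SD vs. 2% HS. Within 250 kb of the start of each gene, 2 of 10 tested genes were called up and 0 down at Gm12248, 1 of 4 and 0 at Akr1c14, 2 of 3 and 0 at Slc6a2, 3 of 7 and 1 at Ly6d, and 0 of 1 at Dpt. Apart from Gm47904, the highest log2 fold change among them was 1.01, in Capns2, a calpain subunit gene beside Slc6a2.

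**Figure D4:**
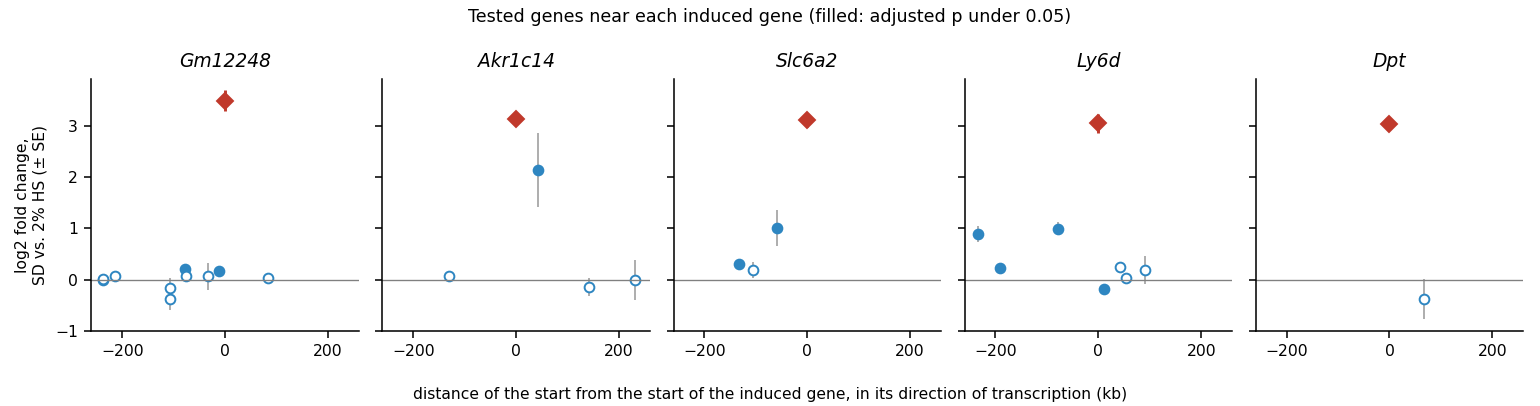
Log2 fold change in SD vs. 2% HS (y axis, bars ± SE) of tested genes whose start lies within 250 kb of the start of each induced gene (x axis, kb in the direction of its transcription). Red diamonds are the induced genes and filled circles neighbours past an adjusted p of 0.05; Gm47904 beside Akr1c14 (2.14) is the one neighbour above 1.01.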

How the data were processed

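The authors sequenced stranded, ribosomal RNA-depleted libraries with 150 × 150 bp reads and deposited raw counts per gene, which are whole numbers without normalization. The submitters' processing notes name cutadapt 1.16, STAR 2.7.6a, featureCounts 1.6.3, DESeq2 1.30.1 and GRCm38. The strand setting, the annotation release and the treatment of reads with several positions are not given in the sources used here, and 55227 of 55487 identifiers matched GENCODE M21. Reads of overlapping genes may therefore have been counted differently from what the annotation shows.

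Counts were analysed in R 4.3.3 with edgeR 4.0.16. Genes were kept by filterByExpr (minimum count 10, minimum total 15, group size 6), libraries were scaled by TMM, and 1 mean per group was fitted to all 30 libraries (estimateDisp, glmQLFit robust). Each contrast was put to edgeR's quasi-likelihood F test and called at a p under 0.05 after Benjamini-Hochberg adjustment over the 15907 genes kept. The SE is the absolute log2 fold change divided by the square root of F, and intervals are 95% intervals. CPM are TMM-scaled, and log2 CPM use a prior count of 2. The procedure was tested on simulated data.

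The members and the gene lists were chosen with earlier results of these data known. Beyond the members, the genes named are the next 3 under the rule, the 3 with the nearest profile, the nearest tested gene on each side, the 3 called genes per list with the largest change and defining markers. Ccn3, Akr1a1, Dcn, Fn1, Tgfb1, Vtn, Capns2 and the close relatives of Akr1c14 and Slc6a2 were named after their values were seen. Same-numbered replicates were checked for pairing by the correlation of their deviations from the group means. It averaged 0.0157 against -0.0031 for different numbers, and the main fit did not treat the numbers as pairs.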

Additional observations from a re-analysis of the deposited data

How the results depend on the processing

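Alternatives were DESeq2's size factors in edgeR, upper-quartile normalization, the DESeq2 1.42.0 Wald test, limma-voom (limma 3.58.1) with sample quality weights, no filter on low counts, at least 10 counts in every library, a replicate block, a model of only the groups compared, and each of 30 libraries left out. The strict filter removed Gm12248 and Ly6d and gave no value for them. The Akr1c14 call in MET+LEU vs. SD held in all 38 fits, with log2 fold changes of 0.27 to 0.35. The counts of 0 members in MET vs. SD, MET+LEU vs. MET and LEU vs. MET were the same in all 38 fits, and that of the interaction in 37, since DESeq2 gave no adjusted p for any member there. In MET vs. SD it gave none for 3 of the 5, Gm12248, Slc6a2 and Ly6d.

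In LEU vs. SD the count of members called went from 0 to 1 (Ly6d) under DESeq2's size factors, upper-quartile normalization, the DESeq2 Wald test, limma-voom, no filter, only the groups compared and the replicate block, and was 0 to 1 with 1 library left out (adjusted p of Ly6d 0.0148 to 0.169). In MET+LEU vs. LEU it went from 1 (Akr1c14) to 0 under DESeq2's size factors, no filter, only the groups compared and upper-quartile normalization, and was 0 to 1 with 1 library left out (adjusted p of Akr1c14 0.0337 to 0.166). In MET+LEU vs. SD a model of only the groups compared called 3 matrix genes down in place of 5 and 1 steroid gene up in place of 2, and there and by limma-voom 0 steroid genes in place of 1 were called down. DESeq2 called 1 gene of the Ly6/uPAR family up there in place of 0. In SD vs. 2% HS, 1 gene of that family fell in place of 2 with no filter, and 1 noradrenaline gene rose in place of 2 with the strict filter. The causes were not tested. The replicate block left the count at 1 in MET+LEU vs. LEU and in MET+LEU vs. SD, raised it from 0 to 1 in LEU vs. SD and changed no other count of members. The labels' replicate numbers are only numbers here: 2 of 60 same-numbered pairs correlated above 0.1, and 11 of 30 libraries correlated best with their own number.

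Differences near 0 changed sign. Under limma-voom Gm12248 became 0.0036 in LEU vs. SD, 0.046 in MET+LEU vs. LEU and 0.049 in MET+LEU vs. SD, and Ly6d 0.011 in MET+LEU vs. MET. With 1 library left out the ranges were -0.084 to 0.082 for Gm12248 in LEU vs. SD, -0.13 to 0.028 in MET+LEU vs. LEU and -0.12 to 0.025 in MET+LEU vs. SD, -0.046 to 0.0053 for Dpt in LEU vs. SD, -0.069 to 0.011 for Akr1c14 in LEU vs. MET, -0.15 to 0.017 for Ly6d in MET+LEU vs. MET, -0.084 to 0.033 for Slc6a2 in MET+LEU vs. SD and -0.0088 to 0.042 for Atp1b1 in SD vs. 2% HS. Counts of 5 to 18 per library in 2% HS limit the precision of the fold changes of Gm12248 and Ly6d.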
